A study of Mus musculus with 6 samples.

Results

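Mitosis and spindle genes were measured in mouse double negative T cells kept with or without interleukin-10 (IL-10). The 42 genes were chosen by name, from the known parts of G2/M control, the spindle and the kinetochore, and were looked up in the deposited gene table. The choice was made with earlier results of these data known. Counts of members set beside shares of all tested genes are therefore descriptions and not independent evidence. All 42 were among its 29393 rows, and all 42 were among the 14916 genes that had at least 10 counts in at least 3 libraries. The cells, named cDNT, are T cells of adult C57BL/6 mice that lack CD4 and CD8 on their surface and were made ex vivo from CD4+ T cells, which were grown beside mature dendritic cells in IL-2, and then sorted; the labels give spleen as the tissue. One group was stimulated for 24 h with IL-10 at 50 ng/ml (W/ IL-10), and the other had no added IL-10 (W/O IL-10). The methods of the study name antibodies to CD3 and CD28 beside IL-10, but do not say whether the W/O IL-10 cells received them. The label of those cells, described as W/O IL-10 stimulated, does not settle this. IL-10 and these antibodies therefore cannot be told apart as the difference between the groups, if the controls had none. There were 3 RNA-seq libraries per group. No source says whether the libraries came from separate cultures or mice, so p-values measure the spread between these libraries, which may be technical.

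A dividing cell copies its DNA in S phase, passes through G2 and then builds a spindle of microtubules that pulls the chromosome copies apart. Cyclin-dependent kinase 1 with cyclin B drives entry, kinetochores attach chromosomes to microtubules, a checkpoint holds division until all are attached, and the anaphase-promoting complex then releases the copies. T cells stimulated through CD3 and CD28 enter division, and transcripts of these genes peak in the G2 and M part of the cycle. In a bulk library a smaller number of dividing cells and less of the transcript per cell cannot be told apart.

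The stretches of 200 bases before the transcription start of 5 genes are shown, because most genes of this group share short promoter letters through which their transcription is known to be timed. Top2a and Mki67 were the most abundant of the 42 by counts, Kif11 and Ccnb2 are a spindle motor and a cyclin, and Nusap1 is shown as a gene without either motif. Capitals mark the cell cycle homology region (CHR, TTTGAA or TTCGAA on either strand, so also TTCAAA) and the CCAAT box (CCAAT, or ATTGG on the other strand). The sequences are from RefSeq, build GRCm38.p6, written 5′ to 3′ on the strand of the gene and ending at the base before its start. Top2a lies at chr11:99024190-99024389 on the minus strand, Mki67 at chr7:135716380-135716579 on the minus strand and Kif11 at chr19:37376182-37376381 on the plus strand. Ccnb2 lies at chr9:70421555-70421754 on the minus strand, and Nusap1 at chr2:119618098-119618297 on the plus strand. All 5 stretches lie upstream of the annotated genes.
Top2a: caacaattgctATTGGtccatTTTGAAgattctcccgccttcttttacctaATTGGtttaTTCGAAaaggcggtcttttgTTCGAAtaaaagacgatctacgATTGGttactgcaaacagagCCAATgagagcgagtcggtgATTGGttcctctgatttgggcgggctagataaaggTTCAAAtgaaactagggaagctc
Mki67: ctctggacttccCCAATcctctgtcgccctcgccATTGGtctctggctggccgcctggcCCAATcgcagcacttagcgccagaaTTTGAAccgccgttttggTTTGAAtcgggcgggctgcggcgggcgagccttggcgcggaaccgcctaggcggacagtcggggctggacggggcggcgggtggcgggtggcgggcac
Kif11: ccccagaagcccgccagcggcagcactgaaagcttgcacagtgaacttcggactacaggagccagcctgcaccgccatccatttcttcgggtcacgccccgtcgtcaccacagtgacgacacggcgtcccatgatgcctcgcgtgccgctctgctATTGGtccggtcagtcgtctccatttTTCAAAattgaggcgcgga
Ccnb2: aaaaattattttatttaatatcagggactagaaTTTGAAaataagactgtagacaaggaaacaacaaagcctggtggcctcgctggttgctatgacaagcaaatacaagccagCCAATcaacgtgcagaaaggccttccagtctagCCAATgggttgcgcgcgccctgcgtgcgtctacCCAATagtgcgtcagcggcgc
Nusap1: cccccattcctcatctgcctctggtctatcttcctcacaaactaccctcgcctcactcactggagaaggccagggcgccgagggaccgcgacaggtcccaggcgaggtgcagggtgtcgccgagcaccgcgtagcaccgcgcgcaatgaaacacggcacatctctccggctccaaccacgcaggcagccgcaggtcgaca
The Top2a stretch held 4 CHR and 5 CCAAT matches, and that of Mki67 held 2 CHR and 3 CCAAT matches. Kif11 had 1 of each, the CHR 19 bases and the CCAAT box 45 bases before the start. Ccnb2 had 3 CCAAT boxes at 87, 54 and 21 bases before the start and 1 CHR at 167 bases. Another CHR match of Ccnb2 began 4 bases after the start, outside the stretch shown.

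RefSeq windows from 250 bases before to 50 bases after the start were available for 34 of the 42 genes, in 36 windows, and the same letters were searched in each. The last 20 bases of 34 windows occurred in a GENCODE transcript of the gene, but not those of Aurka and Mad2l1. A CHR was present in 28 of the 36 windows (77.8%), against 19.2% of all 32851 mouse windows and 14.5% of the 13190 windows of tested genes. A CCAAT box was present in 26 windows (72.2%), against 37.4% of all windows, and at least 2 boxes in 50.0% against 11.7%. Both motifs occurred in 24 windows (66.7%), against 7.53% of all windows. The E2F letters of S phase promoters (TTTCCCGC, TTTGGCGC, TTTCGCGC or TTTGCCGC, both strands) occurred in 2 windows (5.56%). The share was 2.27% of all windows and 3.93% of the windows of tested genes. None of the motifs holds the whole of another, although matches can share end bases. Of 52 S phase and replication genes, 41 had windows, 47 in all. Of these, 38.3% held E2F letters, 17.02% a CHR, 61.7% a CCAAT box and 36.17% at least 2 boxes. Of the 78 windows of further G2/M and spindle genes, 60.26% held a CHR, 66.67% a CCAAT box and 43.59% both. The CCAAT share was thus not particular to the members, and the CHR share was also high in the further G2/M genes. A match is a description of the letters and not evidence of binding.

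The 42 genes had a median log2 fold change (W/ IL-10 minus W/O IL-10) of 0.51, a 1.42-fold higher level W/ IL-10, while the median of all tested genes was 0.0064. The value was higher in 41 of the 42, against 51.2% of all tested genes, and Pttg1, the securin gene, was the exception. The interquartile range of the members was 0.46 to 0.57. A gene was called at a fold change of at least 1.5 and an adjusted p under 0.05 in the quasi-likelihood test of edgeR, adjusted over all tested genes by the method of Benjamini and Hochberg. The fit with all 6 libraries, the filter on low counts and neither a block nor a correction is called the standard fit, and adjusted p-values given without another setting are from it. By this rule 1 member was called higher, Kif2c, where 0.778% of tested genes were called higher. None was called lower, where 0.677% of tested genes were; no member was lower at an unadjusted p under 0.05 either, and DESeq2 called none lower. With the fold change left out, 6 members passed an adjusted p under 0.05 (1.21% of tested genes did so with a higher level): Ccnb1, Cdk1, Mad2l1, Ube2c, Birc5 and Kif2c. At an unadjusted p under 0.05, 39 members were higher, against 7.58% of tested genes. Most members thus had differences of similar size, few of which passed the test one by one. The paper reports by Edu staining that IL-10 lowered the proliferation of cDNT given antibodies to CD3 and CD28, increasingly with dose. Edu staining and transcript levels are unlike measures, and the difference in direction was not tested.

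The groups did not overlap in 38 of 42 genes: every W/ IL-10 library lay above every W/O IL-10 library, which was the case for 11.3% of tested genes. The other 4 were Bub1b, Cdc20, Incenp and Pttg1. Summed over the 42 genes, the level was 1918, 2536 and 2723 CPM (counts scaled to the library total) in W/O IL-10 replicates 1 to 3 and 3216, 3328 and 3489 CPM in the W/ IL-10 libraries. The W/O IL-10 libraries were thus spread more widely than the W/ IL-10 libraries, with replicate 1 far below the other two. The mean log2 CPM of the 42 genes was 5.43 ± 0.27 without IL-10 and 5.94 ± 0.06 with it (SD, n = 3 each).

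**Figure D1:**
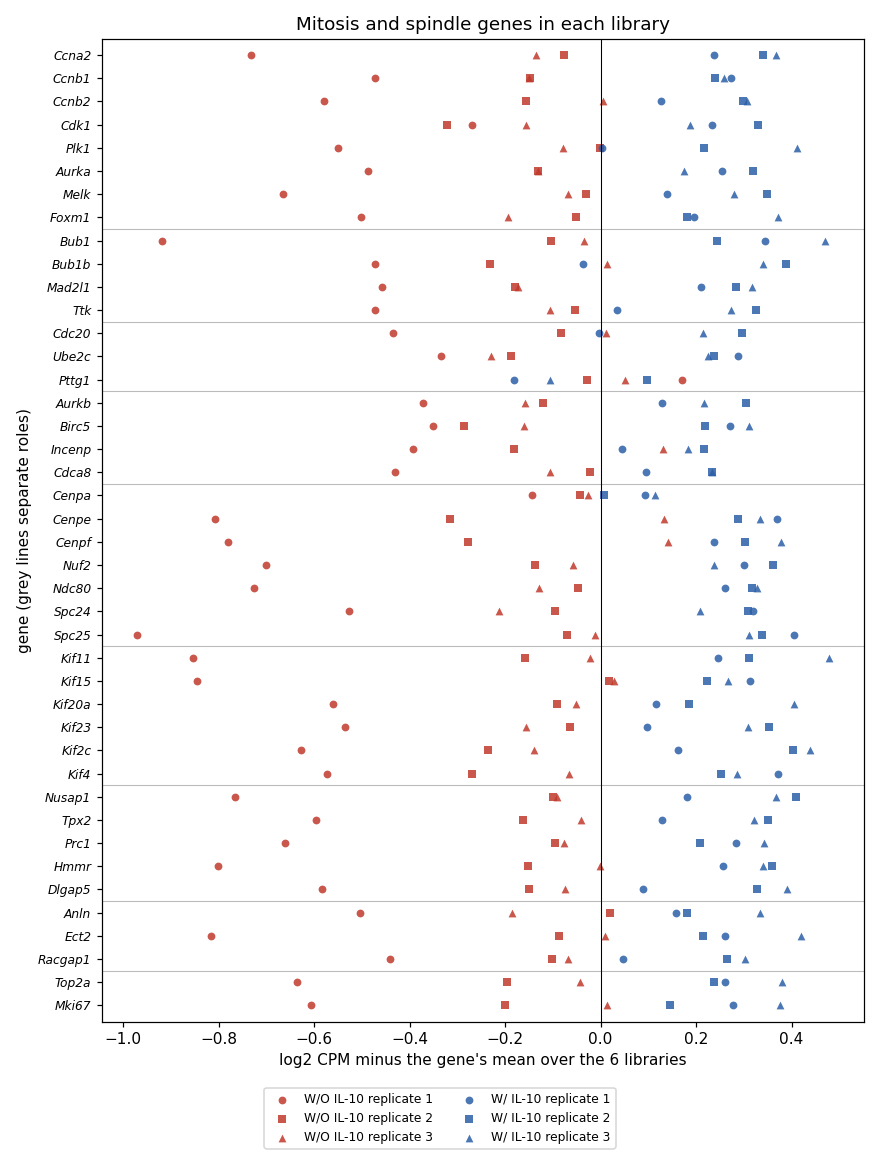
Each row is one of the 42 genes and each point a library; the horizontal axis is log2 CPM minus the mean of the gene over the 6 libraries, W/O IL-10 in red and W/ IL-10 in blue, with grey lines between roles. W/O IL-10 replicate 1 (red circles) is the lowest of the 6 libraries for 40 of the 42 genes, and in 38 genes all blue points lie right of all red points.

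W/O IL-10 replicate 1 had the lowest level of the 6 libraries in 40 of the 42 genes, whereas it was the lowest for 25.1% of all tested genes. It lay below the mean of the other W/O IL-10 libraries by a median of -0.45 log2 units over the members, from -0.92 for Spc25 to 0.16 for Pttg1, while the median over all tested genes was 0.00605. This library also differed in other respects: 1.34% of its counts came from mitochondrial genes against 2.21% to 2.79% in the other 5. In it the 2008 tested genes with a GC content (of their longest transcript) of at most 42% lay a median of -0.36 log2 units from their mean over the 6 libraries, against 0.04 to 0.22 in the others. The part of these properties in the low level of mitosis genes was not tested beyond the fits given next.

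Without W/O IL-10 replicate 1 the difference was smaller and less variable. The median log2 fold change was 0.36 (1.29-fold), 41 of 42 genes again had a higher value, and the median standard error (SE) fell from 0.14 to 0.09. No member then reached 1.5-fold with an adjusted p under 0.05 in edgeR (0.847% of tested genes did). At an unadjusted p under 0.05, 38 members were higher, and 1082 of 14646 tested genes. However, 18 members passed an adjusted p under 0.05 at any fold, against 2.03% of the tested genes. These included all 6 that passed with 6 libraries, and also Ccna2, Aurka, Bub1, Nuf2, Ndc80, Kif11, Kif4, Nusap1, Tpx2, Prc1, Hmmr and Top2a. In 38 genes every W/ IL-10 library lay above W/O IL-10 replicates 2 and 3, as did 16.9% of all tested genes.

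**Figure D2:**
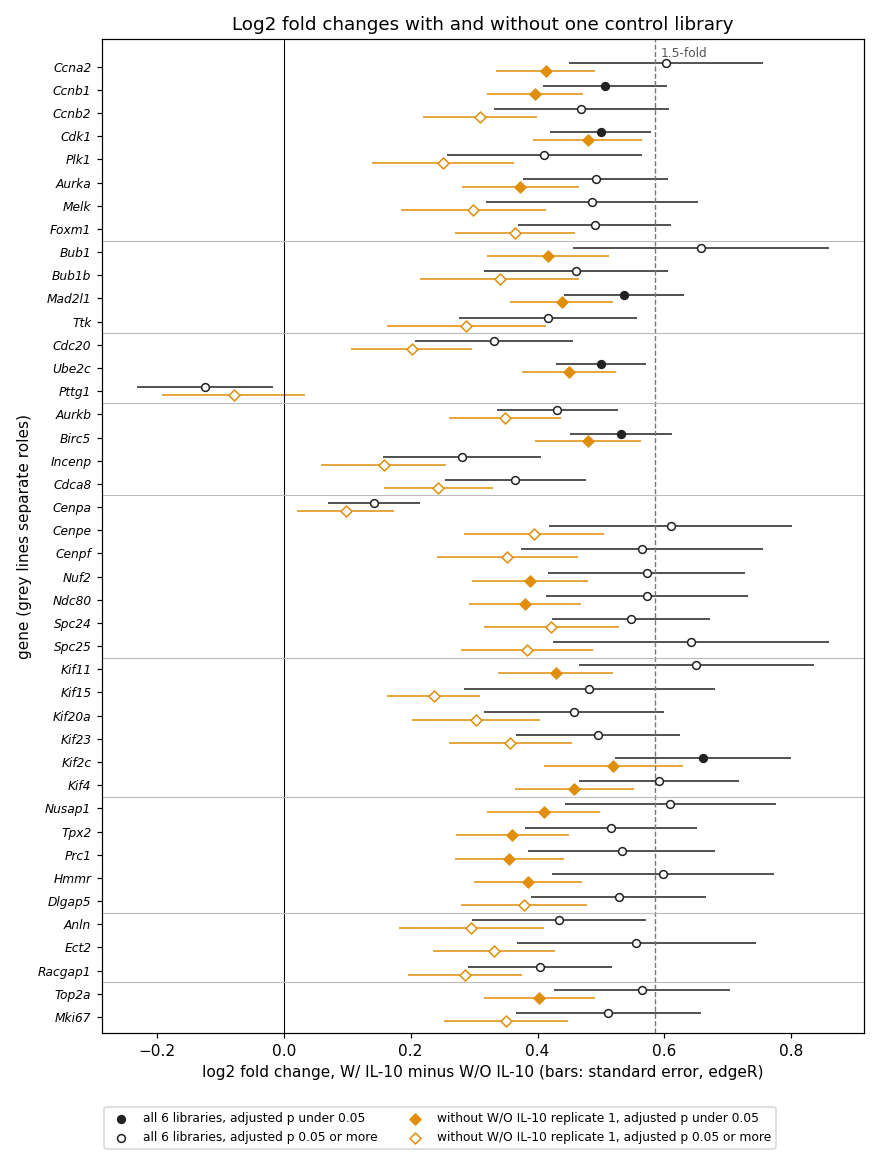
Log2 fold change (W/ IL-10 minus W/O IL-10) of each gene with its standard error from edgeR, with all 6 libraries (black circles) and without W/O IL-10 replicate 1 (orange diamonds); filled symbols had an adjusted p under 0.05 and the dashed line marks 1.5-fold. The medians are 0.51 and 0.36, with 6 and 18 filled symbols, and Pttg1 is the only gene left of 0.

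Base composition was examined because genes of low GC content had higher values W/ IL-10 in the comparison of groups. This rested on single libraries. For genes of at most 42% GC, W/O IL-10 replicate 1 lay at -0.36 and W/ IL-10 replicate 1 at 0.22 log2 units from the mean. The other libraries of both groups lay at 0.04 to 0.06. Tested genes with a GC content of at most 42% had a median log2 fold change of 0.20, and those above 54% of -0.08. The members had a median GC content of 46.3%, against 49.3% for tested genes. Within each of 7 bins of GC content the median of the members, 0.41 to 0.59, lay above that of the tested genes in the bin. After GC content and gene length were regressed out in each library, the median of the members was 0.49, and 10 passed an adjusted p under 0.05 in edgeR, against 2.13% of tested genes. The corrected bin medians were 0.43 to 0.53 for the members and -0.0035 to 0.02 for the tested genes. With the correction and without W/O IL-10 replicate 1, an alternative chosen after seeing the data, 22 members passed, against 2.7% of tested genes. Ccnb1, Cdk1, Ube2c, Birc5 and Kif2c passed an adjusted p under 0.05 with 6 libraries in edgeR, without W/O IL-10 replicate 1, with the correction, and in DESeq2. None of these passed in edgeR when W/O IL-10 replicate 2 or any one W/ IL-10 library was left out. With single libraries left out, the highest adjusted p ran from 0.0846 for Ube2c to 0.229 for Kif2c. Ccnb1 also did not pass with the replicate number as a block (adjusted p = 0.0543 in edgeR).

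**Figure D3:**
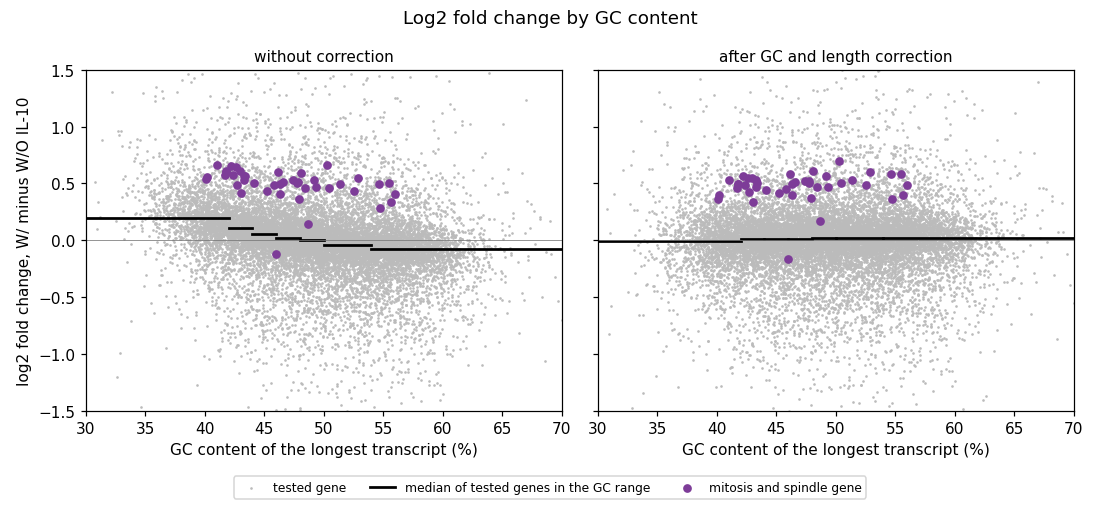
Log2 fold change against GC content of the longest transcript in percent, without correction (left) and with GC content and length regressed out (right), with the 42 genes in purple over the tested genes in grey, and black lines for the median of tested genes in each GC range; genes beyond the axis limits are not drawn. Uncorrected, the median of tested genes falls from 0.20 at a GC content of at most 42% to -0.08 above 54%, and the median of the 42 genes is 0.51 in the left panel and 0.49 in the right.

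The number of members that passed depended on the test more than the size of the difference did. DESeq2 gave 26 members at an adjusted p under 0.05, against 2.58% of the tested genes, and edgeR without a filter on low counts gave 38, against 2.43% of all 29393 genes. When W/O IL-10 replicate 2 or any one W/ IL-10 library was left out, edgeR gave 0. However, 31 to 39 members were higher at an unadjusted p under 0.05, as were 832 to 1007 of all tested genes. In these 4 fits 31 to 65 of all tested genes had a higher level at an adjusted p under 0.05, against 181 with all libraries. The median log2 fold change of the members stayed between 0.36 and 0.58 over the 6 fits without a library.

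Of the genes that drive entry into mitosis, Cdk1, the kinase at the centre of this step, rose W/ IL-10. Its levels were 46.5, 44.8 and 50.3 CPM W/O IL-10 and 65.9, 70.4 and 63.8 CPM W/ IL-10, so the groups were separate and W/O IL-10 replicate 1 was not the lowest. The log2 fold change was 0.50 (SE 0.08, adjusted p = 0.0205 in edgeR; 0.48 without W/O IL-10 replicate 1, adjusted p = 0.00908). Ccnb1, the cyclin B1 that activates it, was at 40.7, 51.0 and 51.0 CPM W/O IL-10 and at 68.3, 66.7 and 67.6 CPM W/ IL-10. It rose by 0.51 on the log2 scale (SE 0.10, adjusted p = 0.0390 in edgeR), with W/O IL-10 replicate 1 below the rest. Both genes are protein coding, Cdk1 at chr10:69335146-69352938 and Ccnb1 at chr13:100778650-100786570 in GRCm38, on the minus strand. Of the 50-base stretches of the Ccnb1 transcripts, 23.4% also occur in other genes, among them its pseudogene Ccnb1-ps, and how such reads were counted is not given in the sources used here.

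The other 6 genes of this role had higher values that did not pass an adjusted p under 0.05 in the standard fit. In DESeq2, Ccna2 (adjusted p = 0.00809), Ccnb2 (0.0492), Aurka (0.0124) and Foxm1 (0.0171) did, and edgeR without a filter gave all 8 genes of the role. Ccna2, the cyclin A2 of S phase and G2, spanned 49.8 to 78.5 CPM W/O IL-10 and 97.6 to 107 CPM W/ IL-10 (log2 fold change 0.60, SE 0.15, adjusted p = 0.0938 in edgeR). Ccnb2, the second B-type cyclin, spanned 40.7 to 61.1 and 66.4 to 75.2 CPM (0.47, adjusted p = 0.144). Foxm1, the forkhead transcription factor of G2/M genes, spanned 31.7 to 43.4 and 50.9 to 58.2 CPM (0.49, adjusted p = 0.0856). Among the kinases, Aurka, which matures the spindle poles, differed by 0.49 on the log2 scale (adjusted p = 0.0727). Plk1, the polo-like kinase, differed by 0.41 (adjusted p = 0.255), and Melk 0.49 (adjusted p = 0.212). The groups did not overlap in any of the 8 genes, whereas 11.3% of tested genes had every W/ IL-10 library above every W/O IL-10 library. The median log2 fold change of the 8 was 0.49. In DESeq2, 2.58% of tested genes passed with a higher level, and without a filter 2.43% of all 29393 genes did. These shares, and 7.58% at an unadjusted p under 0.05, also apply to the roles below.

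Of the 4 spindle checkpoint genes, Mad2l1 rose; its protein is the part of the checkpoint that holds the anaphase-promoting complex. Its levels were 36.6, 44.5 and 44.6 CPM W/O IL-10 and 58.3, 61.3 and 62.7 CPM W/ IL-10. All W/ IL-10 libraries were thus above all W/O IL-10 libraries (log2 fold change 0.54, SE 0.09, adjusted p = 0.0287 in edgeR). Mad2l1, at chr6:66535390-66547220 on the plus strand, had the lowest GC content of the 42 genes, 40.1%. After the GC and length correction its log2 fold change was 0.36 (adjusted p = 0.0598 in edgeR), so it did not pass there. With the correction and without W/O IL-10 replicate 1 it passed (0.42, adjusted p = 0.0177 in edgeR). Bub1, a checkpoint kinase, was at 18.6, 32.8 and 34.4 CPM W/O IL-10 and 44.8, 41.7 and 48.8 CPM W/ IL-10. Its fold was among the largest (log2 0.66), but its SE was 0.20, and the adjusted p was 0.160 with W/O IL-10 replicate 1 and 0.0332 without it (log2 0.42). Bub1b, the BubR1 protein, overlapped between groups at 43.3 to 60.6 and 58.5 to 78.6 CPM (0.46, adjusted p = 0.174). Ttk, the Mps1 kinase that starts the checkpoint signal, spanned 11.6 to 15.5 and 16.5 to 20.2 CPM (0.42, adjusted p = 0.205).

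The 3 genes of the anaphase-promoting complex and its substrate differed among themselves. Ube2c, its ubiquitin-conjugating enzyme, had the lowest adjusted p of the 42. Its levels were 55.4, 61.3 and 59.5 CPM W/O IL-10 and 85.2, 82.3 and 81.6 CPM W/ IL-10, within a narrow range in each group. It rose by 0.50 on the log2 scale (SE 0.07, adjusted p = 0.0125 in edgeR; 0.45 without W/O IL-10 replicate 1, adjusted p = 0.00582). The gene lies at chr2:164769898-164778822 on the plus strand, and 22.8% of its exon bases overlap Tnnc2 on the opposite strand; whether counting used strand is not given in the sources used here. Cdc20, the activator of the complex, was at 55.3, 70.5 and 75.3 CPM and at 74.5, 91.8 and 86.7 CPM. Its groups overlapped, and the log2 fold change of 0.33 (SE 0.12) had an adjusted p of 0.257. Pttg1, the securin that the complex destroys to free the chromosome copies, was at 26.5, 23.1 and 24.4 CPM W/O IL-10 and 20.8, 25.2 and 21.9 CPM W/ IL-10. It was the one gene with a lower value W/ IL-10 (log2 fold change -0.12, SE 0.11, adjusted p = 0.638), and W/O IL-10 replicate 1 was its highest library.

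Birc5 encodes survivin, a subunit of the chromosomal passenger complex that corrects faulty attachments, and rose W/ IL-10. It was at 38.4, 40.1 and 43.8 CPM W/O IL-10 and at 59.0, 57.0 and 60.7 CPM W/ IL-10. The log2 fold change was 0.53 (SE 0.08, adjusted p = 0.0157 in edgeR; 0.48 without W/O IL-10 replicate 1, adjusted p = 0.00769), and the gene lies at chr11:117849251-117855743 on the plus strand. The other 3 subunits had smaller values that did not pass in the standard fit, although Aurkb did in DESeq2 (adjusted p = 0.0126) and with the GC and length correction (adjusted p = 0.0309). Aurkb, the kinase of the complex, spanned 32.8 to 39.1 and 46.5 to 52.5 CPM (0.43, adjusted p = 0.0593), and Cdca8, borealin, 36.5 to 48.5 and 52.6 to 57.9 CPM (0.37, adjusted p = 0.158). Incenp, the scaffold, overlapped between groups at 84.9 to 122 and 115 to 130 CPM (0.28, adjusted p = 0.345). All 4 proteins work in one complex, while their transcripts ranged from 0.28 to 0.53.

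None of the 7 kinetochore and centromere genes passed an adjusted p under 0.05 in the standard fit, and 6 were at an unadjusted p under 0.05. All 7 had every W/ IL-10 library above every W/O IL-10 library, against 11.3% of tested genes. DESeq2 gave Cenpe, Nuf2, Ndc80 and Spc24 an adjusted p under 0.05, the GC and length correction Spc24, and edgeR without a filter 6 of the 7. Their median log2 fold change was 0.57, beside 0.51 for all 42. Ndc80 and Nuf2, with Spc24 and Spc25, form the complex that binds microtubules. Ndc80 was at 19.8, 31.7 and 30.02 CPM W/O IL-10 and 39.3, 40.9 and 41.2 CPM W/ IL-10 (0.57, adjusted p = 0.123; 0.38 without W/O IL-10 replicate 1, adjusted p = 0.0354). Nuf2 followed at 18.3, 27.0 and 28.5 and at 36.5, 38.1 and 35.0 CPM (0.57, adjusted p = 0.113; 0.39 without that library, adjusted p = 0.0378). Spc25 was at 9.28, 17.3 and 18.1 CPM and at 24.1, 23.0 and 22.6 CPM. It was the gene with the deepest dip in W/O IL-10 replicate 1, and its log2 fold change moved from 0.64 (SE 0.22, adjusted p = 0.205) to 0.38 without it. Spc24 spanned 13.4 to 18.1 and 22.3 to 24.1 CPM (0.55, adjusted p = 0.0682). Cenpe, a kinetochore motor, spanned 40.3 to 77.4 and 86.2 to 91.2 CPM (0.61, adjusted p = 0.174), and Cenpf, a large kinetochore protein of G2 and M, 33.6 to 63.6 and 68.0 to 74.9 CPM (0.56, adjusted p = 0.203). Cenpa, the histone H3 variant that marks centromeres, stood out as the flattest. It was at 159, 170 and 172 CPM and at 187, 176 and 190 CPM, a log2 fold change of 0.14 (SE 0.07, adjusted p = 0.411).

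Kif2c, a kinesin that takes microtubule ends apart, was the one member past both thresholds. Its levels were 18.3, 24.0 and 25.7 CPM W/O IL-10 and 31.7, 37.4 and 38.3 CPM W/ IL-10. The groups were separate, and it rose 1.58-fold (log2 0.66, SE 0.14, adjusted p = 0.0497 in edgeR). Without W/O IL-10 replicate 1 the log2 fold change was 0.52 (adjusted p = 0.0210), below 1.5-fold, and over the alternatives the adjusted p reached 0.229. Kif2c lies at chr4:117159639-117182639 on the minus strand. Kif4, a chromosome-bound kinesin, was close to it at 23.8, 29.4 and 33.8 CPM and 45.8, 42.1 and 43.1 CPM (0.59, SE 0.13, adjusted p = 0.0523). Kif4 passed in DESeq2 (adjusted p = 0.00244), and in edgeR without W/O IL-10 replicate 1 (0.0185) or with the GC and length correction (0.0289). Of its exon bases, 15.1% overlap Pdzd11 on the opposite strand.

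The other 4 kinesins did not pass an adjusted p under 0.05 in the standard fit, while Kif11 and Kif23 did in DESeq2 (adjusted p = 0.0135 and 0.0233) and all 4 did in edgeR without a filter. Kif11, the motor that pushes the spindle poles apart, was at 59.7, 96.8 and 106 CPM W/O IL-10 and 128, 134 and 150 CPM W/ IL-10. The difference was 0.65 on the log2 scale (SE 0.19, adjusted p = 0.131) and 0.43 without W/O IL-10 replicate 1 (adjusted p = 0.0219). Kif15, which shares this work, spanned 41.9 to 76.8 and 87.9 to 93.5 CPM, and its log2 fold change of 0.48 (adjusted p = 0.299) became 0.24 without that library. Kif23 and Kif20a are kinesins of the central spindle and of cytokinesis. Kif23 spanned 30.9 to 42.8 and 47.9 to 57.1 CPM (0.50, adjusted p = 0.104), and Kif20a 30.03 to 42.8 and 48 to 58.6 CPM (0.46, adjusted p = 0.164). Of the exon bases of Kif20a, 29.3% overlap Cdc23 on the opposite strand, the largest such share among the members.

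The 5 spindle microtubule proteins had log2 fold changes from 0.52 to 0.61, the narrowest range of the roles with more than 2 genes, and none passed an adjusted p under 0.05 in the standard fit. All 5 were at an unadjusted p under 0.05, all 5 passed in DESeq2 and in edgeR without a filter, and 3 passed with the replicate block. Nusap1, which bundles spindle microtubules, was at 35.6, 56.5 and 56.9 CPM W/O IL-10 and 68.7, 80.5 and 78.1 CPM W/ IL-10 (0.61, adjusted p = 0.116). Tpx2, which starts microtubule growth near chromosomes and activates Aurora A, was at 54.6, 73.8 and 80.3 and at 90.2, 105 and 103 CPM (0.52, adjusted p = 0.105). Hmmr, a spindle pole protein, spanned 27.5 to 47.9 and 57.3 to 61.6 CPM (0.60, adjusted p = 0.140). All 5 genes of this role had W/O IL-10 replicate 1 as their lowest library. Prc1, the bundler of the central spindle, spanned 24.9 to 37.4 and 45.5 to 50.0 CPM (0.53, adjusted p = 0.121), and Dlgap5, which stabilises kinetochore fibres, 35.5 to 50.4 and 56.5 to 69.6 CPM (0.53, adjusted p = 0.104). Without W/O IL-10 replicate 1, 4 of the 5 passed an adjusted p under 0.05, with log2 fold changes of 0.41 for Nusap1, 0.36 for Tpx2, 0.36 for Prc1 and 0.39 for Hmmr; Dlgap5 had 0.38 (adjusted p = 0.0627).

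The 3 cytokinesis genes had a median log2 fold change of 0.43, and none passed an adjusted p under 0.05 in the standard fit or in DESeq2, while all 3 were at an unadjusted p under 0.05. All 3 passed in edgeR without a filter, and 1, Racgap1, with the replicate block. Anln, the anillin scaffold of the cleavage furrow, spanned 15.1 to 21.7 and 23.9 to 27.0 CPM (0.43, adjusted p = 0.176). Ect2, an exchange factor that acts at the furrow, spanned 19.2 to 34.0 and 39.3 to 45.2 CPM (0.56, adjusted p = 0.208). Racgap1, its partner in the central spindle, spanned 73.3 to 94.9 and 103 to 123 CPM (0.40, adjusted p = 0.126). In all 3 every W/ IL-10 library lay above every W/O IL-10 library, against 11.3% of tested genes.

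Both genes of chromosome structure were abundant. Mki67, the proliferation marker Ki-67 that coats mitotic chromosomes, was at 231, 306 and 355 CPM W/O IL-10 and 427, 390 and 457 CPM W/ IL-10. The W/O IL-10 libraries were spread more widely than the W/ IL-10 libraries, and the log2 fold change of 0.51 (SE 0.15) had an adjusted p of 0.132. For Mki67 the adjusted p was 0.0206 in DESeq2, but 0.0800 in edgeR without W/O IL-10 replicate 1 and 0.0601 with the GC and length correction. Top2a, the topoisomerase that untangles the DNA copies, was at 188, 255 and 284 CPM and at 351, 345 and 381 CPM (0.57, SE 0.14, adjusted p = 0.0857; 0.40 without W/O IL-10 replicate 1, adjusted p = 0.0242). Top2a also passed in DESeq2 (adjusted p = 0.00474) and in edgeR with the correction (adjusted p = 0.0310).

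As counts per length of exon and per library size (RPKM, a level), the W/O IL-10 means were led by Cdc20 at 35.9, Ccnb2 at 34.1, Mki67 at 29.6, Cenpa at 28.5 and Top2a at 26.9. The lowest were Anln at 2.04, Ttk at 2.85 and Cenpf at 3.13. W/ IL-10 these 5 stood at 45.1, 47.1, 42.2, 31.4 and 39.8 RPKM, with Ube2c at 31.9 RPKM just above Cenpa, and the lowest were again Anln, Ttk and Cenpf at 2.76, 3.80 and 4.62 RPKM. The member counts ranged from 227 to 10420 per library.

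Promoter letters did not divide the members by the size of their difference. The 22 genes with both motifs had a median log2 fold change of 0.50, the 4 with a CHR alone 0.53, the 2 with a CCAAT box alone 0.56 and the 6 with neither 0.53. The last group held Birc5, Mad2l1, Melk, Nuf2, Nusap1 and Pttg1, thus both passing genes and the one with a lower value. The window of Mad2l1 may lie away from its annotated start, since its end was in no transcript of the gene. These medians are descriptions of few genes and were not tested.

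Other genes of the cell cycle were set beside the members, from lists chosen with earlier results of these data known. Of 82 further G2/M and spindle genes, 77 had a higher value (against 51.2% of all tested genes), with a median log2 fold change of 0.43, and 3 passed an adjusted p under 0.05 in the standard fit with a higher level (against 1.21% of tested genes). Among these 82 genes 1 was called, Arhgap11a. It was at 33.7, 26.4 and 44.1 CPM W/O IL-10 and 57.0, 67.5 and 61.4 CPM W/ IL-10 (log2 fold change 0.84, SE 0.17, adjusted p = 0.0428; up to 0.192 over the alternatives). In 58 of the 82 every W/ IL-10 library lay above every W/O IL-10 library, against 11.3% of tested genes.

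The S phase and replication genes had a smaller median. Of 52 such genes, 48 had a higher value, the median log2 fold change was 0.22, and every W/ IL-10 library lay above every W/O IL-10 library in 28, against 11.3% of tested genes. None was called in the standard fit and 1 in DESeq2, although 24 were higher at an unadjusted p under 0.05 (7.58% of tested genes) and 2 at an adjusted p under 0.05 (1.21%). The last 2 were Rrm2, a subunit of the enzyme that makes deoxynucleotides (0.47, adjusted p = 0.0351, up to 0.160 over the alternatives), and E2f2, a transcription factor of S phase (0.57, adjusted p = 0.0447, up to 0.193). The lower genes with the lowest p were Prim2, a primase subunit (-0.10, adjusted p = 0.681), and Fen1, the flap endonuclease (-0.48, adjusted p = 0.707), whose row held few counts. As a mean of log2 CPM, the S phase genes were at 5.16 ± 0.11 without IL-10 and 5.41 ± 0.04 with it (SD, n = 3 each). W/O IL-10 replicate 1 was the lowest library for 40 of the 52.

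Of 24 tested G1 cyclins, their kinases and CDK inhibitors, 14 had a higher value and the median log2 fold change was 0.05. The called gene was Cdkn2d, the inhibitor p19 of CDK4 and CDK6, at 43.6, 40.6 and 43.2 CPM W/O IL-10 and 62.7, 66.8 and 67.4 CPM W/ IL-10 (0.63, SE 0.07, adjusted p = 0.00555 in edgeR; up to 0.0588 over the alternatives). Ccnd2, cyclin D2, was the one gene of this list that fell at an adjusted p under 0.05 (-0.39, adjusted p = 0.0422, up to 0.205 over the alternatives), a gene named after its values were seen. The genes of MuvB and B-Myb, the complex known to read CHR motifs, had a median of 0.12 over 6 genes. None of the 6 passed an adjusted p under 0.05 in the standard fit or in DESeq2, and 1 was at an unadjusted p under 0.05: Lin9 had 0.55 (adjusted p = 0.186), Mybl2 0.29 (adjusted p = 0.427), Lin52 -0.08 (adjusted p = 0.778) and Rbbp4 -0.03 (adjusted p = 0.914).

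**Figure D4:**
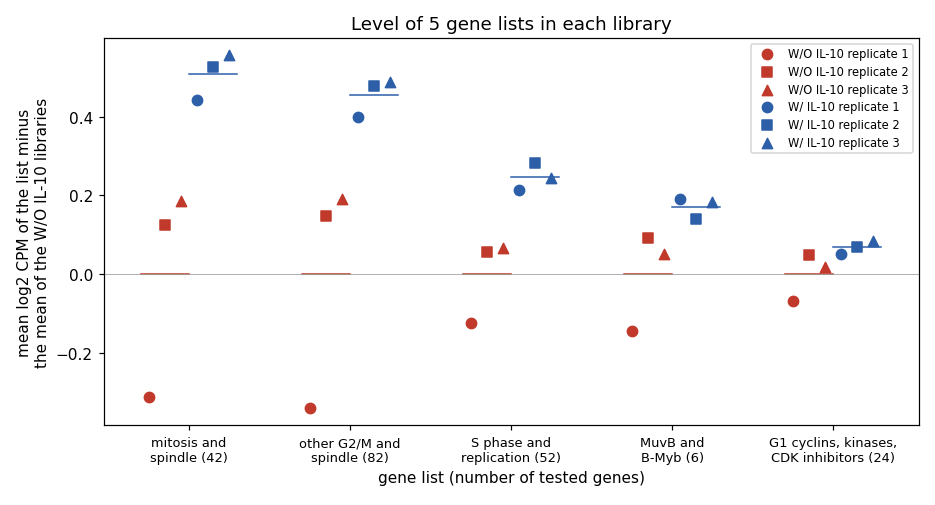
Mean log2 CPM of each gene list in each library minus the mean of the 3 W/O IL-10 libraries; points are libraries and short lines the group means. The mitosis and spindle genes run from -0.31 to 0.19 W/O IL-10 and from 0.44 to 0.56 W/ IL-10, the S phase genes from -0.12 to 0.07 and from 0.21 to 0.28, and W/O IL-10 replicate 1 is the lowest library in each list shown.

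The libraries held 21619420 to 23967088 counts, so 3 counts, the limit that a count of 0 allows, were 0.125 to 0.139 CPM, for counting error only. Genes known to respond to IL-10 also differed between the groups. Socs3, a feedback inhibitor of cytokine signalling, was at 10.6 ± 0.906 CPM W/O IL-10 and rose to 37.4 ± 7.11 CPM W/ IL-10 (SD over 3 libraries; 1.82 on the log2 scale, adjusted p = 0.00102 in edgeR). Bcl3, a regulator of NF-kB, also rose, by 1.69 (adjusted p = 0.000202), and Il10ra, a subunit of the IL-10 receptor, fell by 0.95 on this scale (adjusted p = 0.00122). The paper reports the opposite direction for the receptor protein, which rose with the IL-10 dose on cDNT by flow cytometry. Transcript and surface protein are unlike measures, and the difference was not tested. T cell markers were abundant: the sum of 9 was 3194 to 3671 CPM W/O IL-10 and 4094 to 4226 CPM W/ IL-10. Cd4 was at 0.351 to 1.55 CPM, while Cd8a was at 95.8 to 119 CPM W/O IL-10 and 139 to 169 CPM W/ IL-10, which goes against the surface definition at the level of transcripts. The B cell markers summed to 62.3 to 153 and 59.4 to 106 CPM, with W/O IL-10 replicate 1 the lowest of its group. The 8 dendritic cell and macrophage markers summed to 37.1 to 40.5 and 54.7 to 66.0 CPM, of which Itgax, also found on activated T cells, made up 18.8 to 22.7 and 39.9 to 49.4 CPM; Flt3 and Csf1r were near 0. The 4 NK cell markers, among them Eomes, which T cells also use, summed to 547 to 580 and 389 to 417 CPM, and the 6 erythroid and neutrophil markers to 3.88 to 10.6 and 4.91 to 7.14 CPM. The T cell, dendritic cell and NK cell sums did not overlap between the groups, the last being lower W/ IL-10. Neither did the sum of Cd4, Cd8a and Cd8b1, at 130 to 165 and 199 to 233 CPM. The dendritic cell and NK cell differences lay largely in Itgax and in Eomes, at 498 to 539 and 353 to 384 CPM. Xcr1 was also higher W/ IL-10, but Zbtb46 and Cd14 were lower. Ncr1 was lower like Eomes, while Klrb1c and Klra8 overlapped. The part of these markers in the mitosis values was not tested.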

How the data were processed

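RNA-seq of the 6 libraries was analysed from the deposited table of whole-number counts per Ensembl gene, in which the authors applied no normalization. The submitters' processing notes name HISAT2, HTSeq and GRCm38, while the methods of the study name TopHat, Cufflinks and UCSC annotation, and the labels and methods name different library kits. Versions, the counting mode and the use of strand are not given in the sources used here. Reads of overlapping or repeated genes could therefore be split or dropped.

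The members and gene lists were chosen with earlier results of these data known; all members are named, and from each other list the called genes or, with none, the 2 with the lowest p in each direction. Samples were grouped by the labels. The deposited counts of genes that reached 10 in 3 or more libraries were scaled by TMM and tested by quasi-likelihood in edgeR 4.0.16 under R 4.3.3, with Benjamini-Hochberg adjustment. Fold changes were not shrunken, and the SE is the size of the log2 fold change divided by the square root of F. CPM used TMM-scaled totals (prior count 2 on the log scale), and RPKM used the summed exon length of GENCODE for GRCm38. Alternatives were DESeq2 1.42.0, its size factors in edgeR, upper-quartile factors, no filter, 10 counts in every library, limma-voom (limma 3.58.1), the replicate number as a block, a correction for GC content of the longest transcript and exon length (splines with 5 degrees of freedom per library, 99.9% of tested genes), and each library left out in turn. Scripts were tested on simulated data. No pair of libraries held identical values.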

Additional observations from a re-analysis of the deposited data

How the results depend on the processing

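In each of the alternatives 41 of the 42 members had a higher value W/ IL-10, and their median log2 fold change was 0.36 to 0.58. The counts depended on the processing. Members called higher at 1.5-fold (1 with all libraries in edgeR) numbered 8 in DESeq2, 0 with the DESeq2 size factors in edgeR, 8 without a filter, 0 with at least 10 counts in every library, 2 in limma-voom, 2 with the replicate block, 3 with the GC and length correction, 5 with the correction and the block, and 0 with the correction and without W/O IL-10 replicate 1. They ranged from 0 to 3 with single libraries left out. Of the 14916 tested genes, 116 were called higher with all libraries in edgeR, 176 in DESeq2 and 120 in limma-voom. The number was 103 with the block, 152 with the correction and 169 with both. Without a filter it was 302 of 29393, and with single libraries left out 31 to 124. Members at an adjusted p under 0.05 (6) numbered 26 in DESeq2, 38 without a filter, 10 with the replicate block, 10 with the correction, 35 with the correction and the block and 22 with the correction and without W/O IL-10 replicate 1. With single libraries left out they ranged from 0 to 18: 18 without W/O IL-10 replicate 1, 6 without W/O IL-10 replicate 3, and 0 without W/O IL-10 replicate 2 or any one W/ IL-10 library. By this limit 181 of all tested genes were higher with all libraries in edgeR, 385 in DESeq2 and 714 without a filter. There were 157 with the block, 318 with the correction, 531 with both and 31 to 298 with single libraries left out. Over all genes, 217 were called in either direction, against 639 without a filter and 359 in DESeq2. The number was 332 with the correction and the block and 35 to 254 with single libraries left out. The cause of these differences was not tested.

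In the other lists, further G2/M genes called (1) numbered 10 in DESeq2, 18 without a filter, 2 with the replicate block, 4 with the correction, 10 with the correction and the block and 0 to 1 with single libraries left out. S phase genes called (0) numbered 1 each in DESeq2, in limma-voom, without a filter and with the block, 3 with the correction, with or without the block, and 0 to 1 with single libraries left out. G1 genes called (1) numbered 2 without a filter and 0 to 1 with single libraries left out. Deviations of libraries of the same number were weakly correlated (0.05, -0.06 and 0.11), against -0.11 to 0.04 for different numbers. Not every library correlated best with its own number. With 3 libraries per group, these values cannot decide whether the numbers pair the libraries. Each member had at least 227 counts in each library.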
